A study of Homo sapiens with 7 samples.

Results

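Ferritin and the proteins that bring iron into the cell, store it, release it and sense it were examined as a group of 10 genes, namely FTL, FTH1, FTMT, NCOA4, TFRC, SLC11A2, SLC40A1, ACO1, IREB2 and HMOX1. The group was selected on the level of FTL, the light chain of ferritin, a bright mRNA that was lower on the array of cells given a PARN shRNA, and the others were taken by name as genes of iron handling. All 10 genes were on the array, with 15 probes, out of 42405 gene probes that carried 19062 named genes. The values of FTL on the PARN shRNA array therefore chose the group and are given as a description, as is every other difference on that array.

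The study asked how gene expression responds when deadenylases, the enzymes that shorten the poly(A) tail of mRNA, are silenced. Total RNA of NCI-H520, an established human cell line of squamous lung carcinoma, was hybridised to 7 single-colour arrays, 1 for each transfection. The cells had received 6 µg of a pLKO.1 plasmid, puromycin at 6 µg/mL from 12 h, and were collected at 72 h. The 2 controls were the empty vector and a non-target shRNA, and the 5 other plasmids carried an shRNA against PARN, CNOT6, CNOT6L, CNOT7 or NOC (nocturnin, gene symbol NOCT). For each enzyme the labels list 1 target accession and no shRNA sequence. The labels give the CNOT6L and the NOC shRNA the same target accession, that of nocturnin, so the labels leave the target of the CNOT6L plasmid uncertain. With 1 array per transfection no difference between transfections has a replicate check.

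Iron that is not in use is stored inside ferritin, a shell built of heavy and light chains, and is drawn from it again when ferritin is delivered to the lysosome. Iron enters most cells bound to transferrin through the transferrin receptor, and ferroportin is the exporter. When iron is scarce, the iron regulatory proteins bind hairpins called iron responsive elements, which blocks the translation of ferritin mRNAs and protects the mRNA of the transferrin receptor from decay.

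The loop of the hairpin in FTL mRNA is shown with bases on either side, because FTL is the member on which the group turns. The stretch holds only part of the stem of the hairpin. The loop lies in the first transcribed bases of the gene, in the 5′ untranslated part of the first exon. The whole stretch printed spans chr19:48965336-48965358 on the plus strand of GRCh38.p14 in the RefSeq sequence. The capitals mark the loop, which matches CAGTGN at transcript bases 39 to 44.
FTL: tcttgcttcaaCAGTGTttggac
The letters CAGTGN were searched on the transcribed strand of the first 50 transcribed bases, since the element acts in RNA. They were found in 2 of 13 windows of the 8 members with a window, those of FTL and of 1 NCOA4 start, and in 2235 of 35116 windows of all genes, or 6.36%. No window was at hand for FTH1 and HMOX1, which were not searched. Bases beyond the first 50 were not searched for any gene. A window without a match is therefore not a transcript without the element. A match is a string of letters and not a tested site.

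On every array 82.0% to 91.5% of the gene probes were above background, and 33744 probes were above background on all 7 arrays. All 15 member probes were among these, and none had a saturated spot. Levels below are processed signals on the log2 scale from which the 75th percentile of the array was subtracted, so that 0 is the 75th percentile and a difference of 1 is 2-fold. Of the targeted mRNAs, PARN was at 45.8% of the mean of both controls on its own array, the CNOT7 probes at 54.2% and 50.4%, the CNOT6L probes at 63.0% and 57.1%, NOCT at 74.3% and CNOT6 at 89.6%. For NOCT the controls were 0.41 log2 units apart, and its level of -4.96 on its own array was close to -4.89 on the CNOT7 shRNA array. For CNOT6 the level was 0.21 on its own array against 0.42 and 0.32 on the controls. It was -0.11 from the nearer control, and the controls were 0.10 apart. A loss of NOCT mRNA is therefore not clear of the gap between the controls, and the difference of CNOT6 barely exceeds that gap. Among markers of squamous carcinoma, SOX2, KRT6A and PKP1 were above background on all 7 arrays, whereas TP63 was on 2, KRT5 on 4, and KRT14 and DSG3 on 1 each. Some markers of other cell types were also above background on all 7 arrays. These were NKX2-1 and NAPSA of adenocarcinoma, COL1A1, COL1A2 and 1 of 2 DCN probes of fibroblasts, and 2 of 4 PTPRC probes of blood cells. The SFTPB probes of adenocarcinoma were above background on 1 and on 6 arrays. Detection alone therefore does not mark the line as squamous. The empty vector, non-target, PARN and CNOT6 shRNA arrays lay in row 1 of the slide. Row 2 held those of CNOT6L, CNOT7 and NOC shRNA, so for these 3 the slide row and the difference from the controls cannot be told apart.

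FTL was far lower upon PARN silencing than on any other array. The first FTL probe, A_23_P50504, had a level of 3.48 with the empty vector, 3.76 with the non-target shRNA, 1.82 with PARN shRNA, 3.67 with CNOT6 shRNA, 3.91 with CNOT6L shRNA, 3.80 with CNOT7 shRNA and 3.63 with NOC shRNA. The second, A_32_P155247, stood at 3.72, 4.0, 2.07, 3.78, 3.93, 3.93 and 3.71 on the same arrays in that order. The PARN shRNA array lay alone at the bottom for both probes, and the other 6 arrays spanned 0.43 for the first and 0.30 for the second probe. In these bulk samples, fewer cells with FTL mRNA and less of it per cell cannot be told apart.

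Expressed as a difference, the PARN shRNA array was -1.66 and -1.64 log2 units from the empty vector and -1.94 and -1.93 from the non-target array for the first and second FTL probe. This left 28.7% and 29.0% of the mean of both controls. The control arrays themselves differed by 0.28 and 0.29 for these probes, the empty vector being the lower one. Against the CNOT6 shRNA array of the same slide row, the difference was -1.85 and -1.71.

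The gap was present in the signal before any scaling. The processed signal of the first FTL probe was 7704 on the PARN shRNA array, against 17400 on the CNOT6 shRNA array, which had the lowest 75th percentile of signal, and 31460 to 55467 on the other 5 arrays. The second probe was printed on 2 spots, which gave levels of 2.03 and 2.12 on the PARN shRNA array, and the lowest single spot on any other array was at 3.63. Spots of 1 array measure printing error and not the spread between cultures. Both probes carry the same RefSeq accession, and their levels over the 7 arrays had a Pearson r of 0.994, given as a description since 1 array sets most of it.

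A probe was called when both controls lay 2-fold or more to the same side of it. On the PARN shRNA array 2 of the 15 member probes were called lower, both of FTL, and 0 were called higher; over all probes 0.444% were called lower and 0.295% higher. Because this contrast chose FTL, nothing is read from the count or from the ranks that follow. Of the 33744 probes above background on every array, 6 had a lower value than the first FTL probe and 7 than the second, by the difference from whichever control was closer.

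The difference of FTL was placed among mRNAs of like brightness, since the FTL probes stood at percentiles 96.2 and 96.6 of mean signal. In the brightest 5% of probes, 3 of 2115 were called lower on the PARN shRNA array, which is 0.142%, and they were both FTL probes and A_33_P3389558, a probe with no gene name here. This last probe, named after its values were seen, differed by -1.24 from the empty vector and -1.34 from the non-target array. In the brightest 1%, 0 of 423 probes were called lower. The plane of level and change on the PARN shRNA array shows both FTL probes below the cloud of probes with a similar level. FTL was chosen as a bright mRNA lower on this array, so its place there follows from the choice and nothing is read from it.

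**Figure D1:**
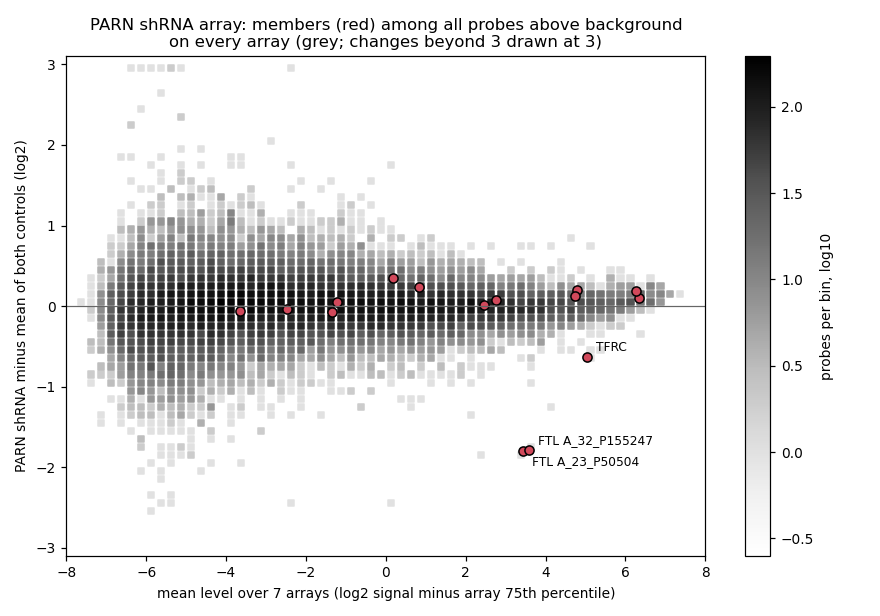
Mean level over the 7 arrays (horizontal axis, log2 signal minus the array's 75th percentile) against the difference of the PARN shRNA array from the mean of both controls (vertical axis, log2). Grey squares are bins of the 33744 probes above background on all arrays, darker with more probes, and red points are the 15 member probes; both FTL probes lie near -1.8 and TFRC near -0.6, while the other members lie between -0.08 and 0.35.

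FTH1, the heavy chain that oxidises iron as it enters the shell, did not follow FTL. Its 3 probes were between 0.29 and 0.52 higher on the PARN shRNA array than with the empty vector and between 0.08 and 0.12 lower than with the non-target shRNA. The probe A_24_P58337 had levels of 6.20 with the empty vector, 6.57 with the non-target shRNA, 6.49 with PARN shRNA, 6.80 with CNOT6 shRNA, 6.15 with CNOT6L shRNA, 6.00 with CNOT7 shRNA and 6.17 with NOC shRNA. For A_33_P3253249 the levels in the same order were 6.00, 6.54, 6.45, 6.83, 5.99, 5.86 and 6.11, and for A_32_P342064 they were 4.50, 5.13, 5.02, 5.58, 4.43, 4.27 and 4.57. All 3 probes were highest on the CNOT6 shRNA array and lowest on the CNOT7 shRNA array.

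None of the FTH1 probes was called on any array. On the CNOT6 shRNA array they exceeded the empty vector by 0.60, 1.09 and 0.82 and the non-target array by 0.23, 0.45 and 0.29, in the order A_24_P58337, A_32_P342064 and A_33_P3253249. The controls differed from each other by 0.37, 0.64 and 0.53 for these probes, which is more than the distance from the non-target array. With CNOT7 shRNA the same probes were 0.57, 0.86 and 0.67 below the non-target array but only 0.20, 0.23 and 0.14 below the empty vector. Both ferritin chains have processed pseudogenes of nearly the same sequence, and which copies each probe binds was not tested.

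FTMT, a ferritin of mitochondria, was dim. The level of its probe was -2.56 with the empty vector, -3.04 with the non-target shRNA, -2.84 with PARN shRNA, -2.22 with CNOT6 shRNA, -2.01 with CNOT6L shRNA, -2.18 with CNOT7 shRNA and -2.39 with NOC shRNA. It was above both controls on 4 of the 5 shRNA arrays, and the exception was PARN. The 2 spots of this probe had an SD of up to 0.69 log2 on 1 array, the widest of any member probe, so its order over the arrays is uncertain.

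NCOA4, the receptor that carries ferritin to the lysosome, varied little. Its brighter probe, A_33_P3270034, had levels of 4.65 and 4.51 on the empty vector and non-target arrays, 4.70 with PARN shRNA, 4.89 with CNOT6 shRNA, 4.86 with CNOT6L shRNA, 4.67 with CNOT7 shRNA and 4.81 with NOC shRNA. All 5 shRNA arrays lay above both controls, by 0.02 to 0.24 over the higher of them. The dimmer probe, A_33_P3319463, was above both controls on 3 of 5 arrays, and its levels ran from -0.15 with the non-target shRNA to 0.47 with CNOT6 shRNA.

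TFRC, the transferrin receptor, was the other member with a low value upon PARN silencing. Its probe was printed on 10 spots and had a level of 4.99 with the empty vector, 5.01 with the non-target shRNA, 4.37 with PARN shRNA, 5.13 with CNOT6 shRNA, 5.25 with CNOT6L shRNA, 5.28 with CNOT7 shRNA and 5.26 with NOC shRNA. The PARN shRNA array stood apart at the bottom, and the other 6 arrays lay within 0.29 of each other. Single spots ran from 4.26 to 4.48 on the PARN shRNA array, and the lowest spot on any other array was 4.88. These spot values include outlier spots, which were left out of the level, among them 1 with PARN shRNA and 2 with the empty vector.

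The difference of TFRC on the PARN shRNA array was -0.62 from the empty vector and -0.64 from the non-target array, leaving 64.7% of the control mean. The controls differed by only 0.02. It missed the 2-fold rule and passed at 1.5-fold, a threshold added after the data were seen, at which 3 member probes passed as lower and 0 as higher. At that threshold 1.53% of all probes and 6 of the 2115 brightest (0.284%) were lower, and 0.522% of all probes were higher. A lower value was found for 313 of the 33744 probes that every array measured above background. Without scaling the TFRC signal was 44924 on the PARN shRNA array and 48047 on the CNOT6 shRNA array, so those 2 arrays separated by 0.76 log2 units only after the 75th percentile of each array was set equal.

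On the 3 arrays of slide row 2, TFRC lay between 5.25 and 5.28, above all 4 arrays of row 1. It exceeded the controls there by 0.23 to 0.29. The levels of the 10 genes on each array are plotted by probe.

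**Figure D2:**
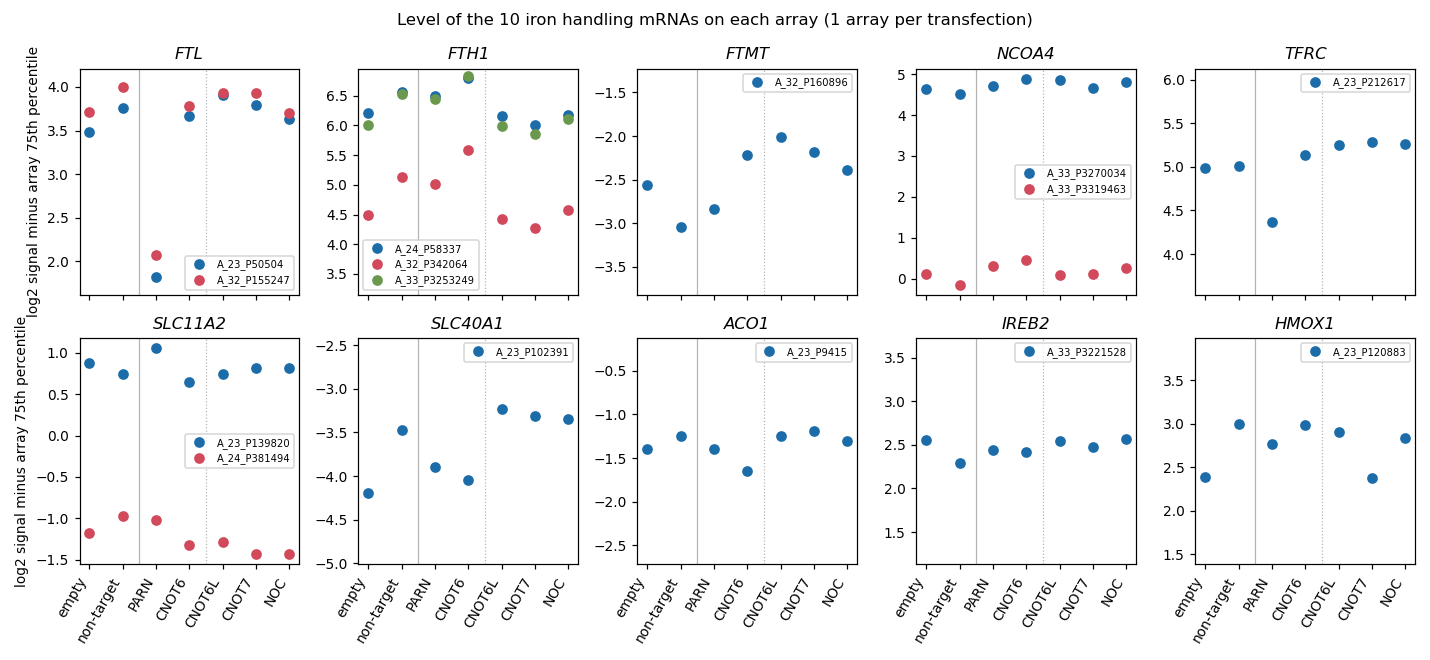
Level of each member probe on the 7 arrays (vertical axis, log2 signal minus the array's 75th percentile, with its own range in every panel; horizontal axis, transfection). Each point is the mean over the spots of 1 probe on 1 array, colours separate probes of a gene, the solid line divides the controls from the shRNAs and the dotted line divides the slide rows; FTL and TFRC are lowest with PARN shRNA and the 3 FTH1 probes are highest with CNOT6 shRNA.

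SLC11A2, a transporter of ferrous iron also known as DMT1, was measured by a pair of probes that did not move together. The brighter one, A_23_P139820, was highest on the PARN shRNA array at 1.06, against 0.88 with the empty vector, 0.75 with the non-target shRNA, and 0.65 to 0.82 on the other shRNA arrays. The dimmer one, A_24_P381494, was at -1.18 and -0.97 on the control arrays and at -1.02 with PARN shRNA, and the other 4 shRNA arrays lay below both controls, at -1.43 to -1.29. All differences from the controls were below 0.5 log2 units in size.

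SLC40A1, or ferroportin, was at a low level that differed between the controls. Its levels were -4.19 with the empty vector, -3.48 with the non-target shRNA, -3.90 with PARN shRNA, -4.05 with CNOT6 shRNA, -3.23 with CNOT6L shRNA, -3.31 with CNOT7 shRNA and -3.35 with NOC shRNA. The 3 arrays of slide row 2 were the highest, at 0.13 to 0.24 above the non-target array and 0.85 to 0.96 above the empty vector. The PARN and CNOT6 shRNA arrays lay between the controls.

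The iron regulatory proteins varied little across the arrays. ACO1, which acts as a cytosolic aconitase when it holds an iron-sulfur cluster and binds iron responsive elements when it does not, had levels from -1.65 with CNOT6 shRNA to -1.19 with CNOT7 shRNA, with the controls at -1.40 and -1.25. IREB2, the other iron regulatory protein, spanned 0.28, from 2.29 with the non-target shRNA to 2.57 with NOC shRNA, the narrowest range of any member probe. On the PARN shRNA array ACO1 was at -1.40 and IREB2 at 2.44, with differences from the controls of -0.15 to 0.15.

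HMOX1, which breaks down haem and frees its iron, split the controls. Its probe was printed on 10 spots, and 3 outlier spots on the CNOT7 shRNA array were left out of the level. The levels were 2.39 with the empty vector, 3.0 with the non-target shRNA, 2.76 with PARN shRNA and 2.99 with CNOT6 shRNA. They were 2.91 with CNOT6L shRNA, 2.38 with CNOT7 shRNA and 2.83 with NOC shRNA. The spots of 1 array, outlier spots included, had an SD of at most 0.06, so the controls were 0.60 apart against a small printing error. Of the shRNA arrays only CNOT7 lay outside the range of the controls, by 0.01.

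On the CNOT6, CNOT6L, CNOT7 and NOC shRNA arrays 0 of the 15 member probes were called in either direction. Over all probes the share called lower was 0.297% with CNOT6 shRNA, 0.734% with CNOT6L shRNA, 0.967% with CNOT7 shRNA and 1.27% with NOC shRNA, and the share called higher was 0.389%, 0.293%, 0.411% and 0.529%. A count of 0 among 15 is near what these shares give. At 1.5-fold the member counts were also 0 in both directions on these 4 arrays, where 1.25%, 2.96%, 3.84% and 3.9% of all probes were lower and 3.4%, 1.83%, 1.68% and 2.13% were higher, in the same order. With the empty vector as the only control, 1 member probe was 2-fold higher on the CNOT6 shRNA array, FTH1 A_32_P342064, and with the non-target array as the only control, FTMT was 2-fold higher on the CNOT6L shRNA array, by 1.04. The share of all probes 2-fold higher than these single controls on the CNOT6 and CNOT6L shRNA arrays is not given here, so nothing is read from either probe. Between the controls themselves, 16.7% of all probes were at least 2-fold higher with the empty vector and 0.658% at least 2-fold lower.

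**Figure D3:**
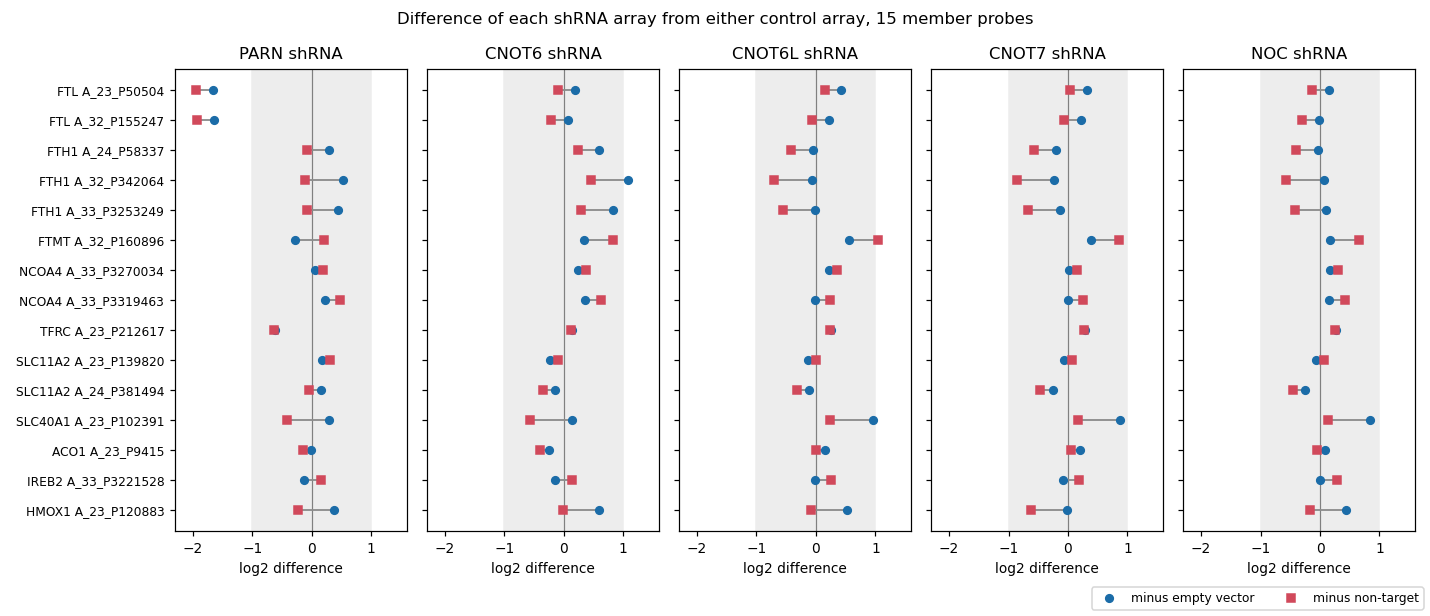
Difference of each shRNA array from the empty vector array (circles) and from the non-target array (squares) for the 15 member probes (horizontal axis, log2 difference; vertical axis, gene and probe). The grey band marks differences under 2-fold; only the FTL probes on the PARN shRNA array have both symbols outside it.

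As a group, the members had no common shift. The median difference of the 15 probes from the control mean was 0.05 with PARN shRNA, 0.13 with CNOT6 shRNA, 0.11 with CNOT6L shRNA, 0.07 with CNOT7 shRNA and 0.02 with NOC shRNA. Over all probes above background the medians were 0.003, 0.11, -0.02, -0.08 and -0.06. On the PARN shRNA array 3 member probes were above both controls and 4 below, which is 20.0% and 26.7%, against 25.3% and 27.6% of all probes.

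The only contrast with more than 1 array in each arm set the 5 shRNA arrays against the 2 controls, and its spread is that between different plasmids. limma called 0 of 38005 probes at a Benjamini-Hochberg adjusted p of 0.05, while 1420 or 3.74% had an unadjusted p under 0.05. Of the 13 member probes other than FTL, 0 had an unadjusted p under 0.05. The smallest p was that of FTMT, 0.48 higher on the shRNA arrays (SE 0.24, limma adjusted p = 0.99997), followed by NCOA4 A_33_P3270034, 0.21 higher on the mean and higher on 5 of 5 shRNA arrays (SE 0.11, limma adjusted p = 0.99997). The probe SLC11A2 A_24_P381494 differed by -0.23 on the mean and was below both controls on 4 of 5 shRNA arrays (SE 0.16, limma adjusted p = 0.99997).

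The rest of iron metabolism was taken from a list of 68 genes, of which 66 were named on the array with 92 probes, 85 of them above background on all arrays. On the PARN, CNOT6 and CNOT7 shRNA arrays 0 of the 92 probes were called in either direction. BOLA3, which helps to pass iron-sulfur clusters on in mitochondria, was the 1 gene called, by 1 probe, higher on the CNOT6L and the NOC shRNA arrays. Over all probes 0.293% and 0.529% were called higher there, so counts of 0 or 1 among 92 are near the background on every array.

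The BOLA3 call came from the probe A_33_P3368301, with levels of -3.62 with the empty vector, -4.66 with the non-target shRNA, -4.10 with PARN shRNA, -3.71 with CNOT6 shRNA, -2.13 with CNOT6L shRNA, -2.78 with CNOT7 shRNA and -2.26 with NOC shRNA. It exceeded the controls by 1.48 and 2.52 on the CNOT6L shRNA array and by 1.35 and 2.39 on the NOC shRNA array. All 3 arrays of slide row 2 were above all 4 of row 1, and within row 2 the CNOT6L and NOC shRNA arrays were 0.39 and 0.19 above the mean of the other arrays of that row. The brighter BOLA3 probe, A_24_P77364, was 0.25 to 0.29 above the controls on these arrays.

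The medians of the listed genes were then taken by role. On the PARN shRNA array the 21 probes for uptake and reduction of iron had a median difference from the control mean of -0.19, the 13 for export and systemic regulation 0.08, the 7 for turnover of iron regulatory proteins and for iron chaperones 0.05, the 14 for haem synthesis and breakdown -0.03, and the 33 for iron-sulfur cluster assembly -0.001. The 4 probes of other mRNAs with an iron responsive element had a median of 0.35, the farthest from 0 of the 6 roles on that array, and none was called. Over the 92 probes the median was -0.02 with PARN shRNA, 0.07 with CNOT6 shRNA, 0.11 with CNOT6L shRNA, 0.05 with CNOT7 shRNA and 0.06 with NOC shRNA.

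**Figure D4:**
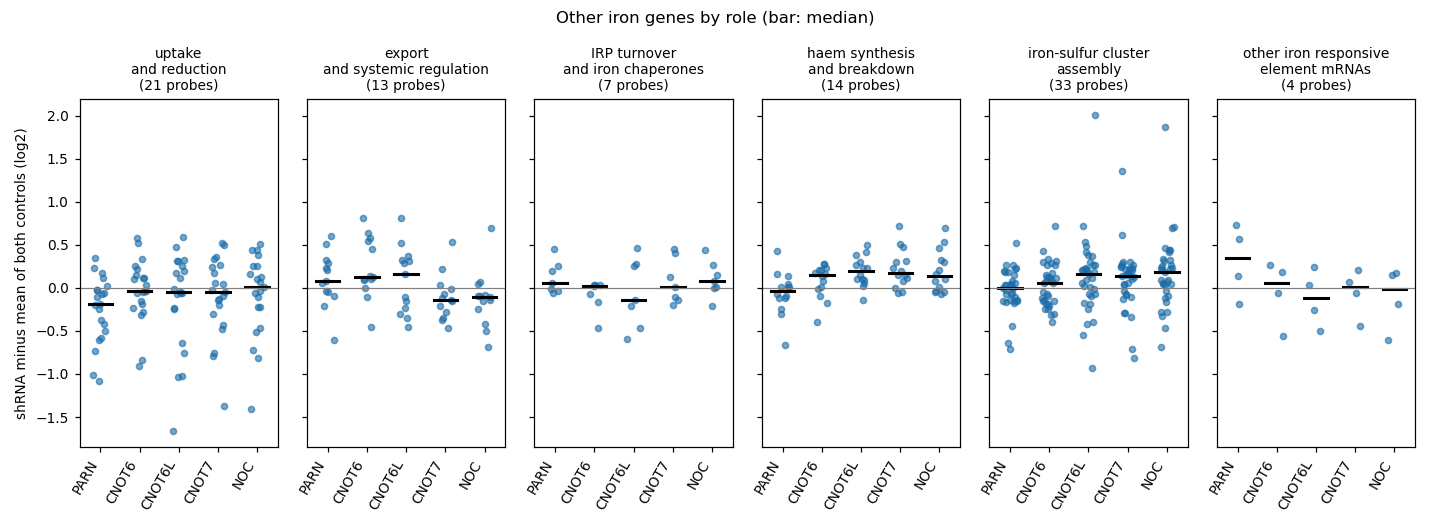
Difference of each shRNA array from the mean of both controls (vertical axis, log2) for the 92 probes of the iron gene list, split by role into 6 panels. Each point is 1 probe, spread sideways for legibility, and bars are medians; points beyond 1.3 in the iron-sulfur panel are the dim BOLA3 probe, and the lowest points in the uptake panel include probes not above background on every array.

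The genes whose pattern over the 7 arrays was most like that of the brighter FTL probe were sought among 3790 named genes with a range of at least 1 log2 unit. By Pearson r they were AKNAD1 at 0.992, CD44 at 0.966, GEMIN2 at 0.960, SRD5A3 at 0.954 and ALG1 at 0.953. In all, 23 genes had an r of at least 0.9. Each gene was represented by 1 probe, the brightest of its probes that had this range and were above background on every array. Other probes of these genes were not compared. CD44 is a receptor for hyaluronan on the cell surface, GEMIN2 belongs to the complex that assembles splicing particles, and SRD5A3 and ALG1 act in the synthesis and use of dolichol for protein glycosylation.

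All 5 had their lowest level on the PARN shRNA array. Against the empty vector and non-target arrays in turn, the difference there was -1.34 and -1.43 for AKNAD1, -0.80 and -1.11 for CD44, -1.09 and -1.62 for GEMIN2, -0.86 and -0.95 for SRD5A3 and -0.89 and -0.89 for ALG1, so that AKNAD1 and GEMIN2 were called. AKNAD1 and GEMIN2 were dim, with levels below -3 on every array. Since 1 array stood apart, this likeness ranks genes mainly by a low value on that array.

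Other ferritin-like sequences on the array were looked at after the values of the members were known. FTHL17, a ferritin heavy chain-like gene, was at 3.36 on the PARN shRNA array, 0.15 below the empty vector and 0.64 below the non-target array, and its levels on the other arrays ran from 3.43 to 4.0. FTLP10, a pseudogene of the light chain, was above background on 0 of the 7 arrays.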

How the data were processed

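Per the file headers, the authors scanned the arrays and obtained spot intensity values with Feature Extraction 10.7.3.1; the deposited scanner files hold a processed, background-corrected signal for each spot. The deposited series table holds log2 values. They were compared with the scanner values for every array but the empty vector. With 1 constant per array removed, 100% of probes lay within 0.02 log2. Levels were the log2 processed signal less the 75th percentile over the gene spots of each array. Control and outlier spots were left out, and spots of a probe were averaged. A probe was above background where at least 50% of its spots were flagged so, and a dim side of a call was set to its bound. Gene symbols came from the RefSeq table of GRCh38.p14 through accessions, for 24827 probes, 1 of them by restoring a zero in the labelled CNOT6 accession.

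limma 3.58.1 in R 4.3.3 (lmFit, eBayes with trend, two-sided) was run over 38005 probes that 2 or more arrays measured above background, and was tested on simulated data. Normexp, with an offset of 50, used the median signal in place of the planned mean signal. All arrays lay on 1 slide in 1 scan, and image extraction for NOC shRNA was on a separate day. The number of arrays limits the precision. Alternatives were a 4-fold threshold, quantile, median or no scaling, normexp, the series table, the background and outlier filters, single controls, slide-row mates, slide row as a term and leaving out arrays; a 1.5-fold threshold, the percentile over probes and the brightest 5% were added after the data were seen.

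The members and gene lists were chosen with earlier results of these data known. Named were all members, pathway genes with a called probe, the targeted mRNAs and the 5 genes most like FTL by Pearson r. Cell type markers were named as a check of the line, and FTHL17, FTLP10 and 1 unnamed probe after their values were seen.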

Additional observations from a re-analysis of the deposited data

How the results depend on the processing

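No paired analysis was possible because each transfection had 1 array. Both FTL probes stayed 2-fold lower on the PARN shRNA array under every scaling, background, filter and control alternative tried, at -1.64 to -1.94, and at -2.13 and -2.12 with no scaling; at 4-fold the count fell from 2 to 0. Without scaling, the overall brightness of the arrays enters: the median of all probes moved by -0.33 with PARN, -1.01 with CNOT6, 0.40 with CNOT6L, 0.54 with CNOT7 and 0.22 with NOC shRNA, the median of the member probes became -0.28, -0.87, 0.51, 0.61 and 0.23, and TFRC on the PARN shRNA array became -0.96. Under no scaling 3 member probes were called lower with CNOT6 shRNA, the array where the median of all probes moved by -1.01. With 1 control array left out, member probes called higher ranged from 0 to 1 with CNOT6 and with CNOT6L shRNA. The shares of all probes called in these settings are not given here, so nothing is read from these counts.

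Shares of all probes called were given above only for the 2-fold and 1.5-fold rules with both controls. Nothing is read from the counts under the other settings that follow. In the iron gene list of 92 probes, no scaling gave 1 lower with PARN, 18 lower with CNOT6 and 4 higher with CNOT7 shRNA. With CNOT6 shRNA the median of all probes moved by -1.01 in that setting. At 1.5-fold there were 2 higher with each of CNOT6, CNOT6L, CNOT7 and NOC shRNA, 3 lower with CNOT6L and 1 lower with CNOT7. At 4-fold, and against slide-row mates, the call with CNOT6L and with NOC shRNA fell to 0. Quantile and median scaling each gave 1 higher with CNOT7 shRNA. With 1 control left out, calls higher ranged from 0 to 2 with PARN, from 1 to 3 with CNOT6L, from 0 to 2 with CNOT7 and from 1 to 2 with NOC shRNA; calls lower ranged from 0 to 2 with CNOT6, from 1 to 3 with CNOT6L and from 1 to 2 with NOC shRNA, and were 1 either way with CNOT7 shRNA.

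limma over all probes gave 0 calls, 3 with no scaling, and 0 to 61 with 1 array left out: 61 without the empty vector and 1 without the non-target array, where the lone control is assumed to vary like the shRNA arrays. Among member probes it gave 0 under every alternative run, with adjusted p from 0.442 for those other than FTL. The causes of these shifts, beyond what no scaling and fewer arrays do by construction, were not tested. With 1 array per transfection, none of the differences can be set against the spread between cultures.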
